A study of Mus musculus with 6 samples.

Results

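The proteins of the cytosolic ribosome, and the extra copies of some of them that mammals carry, were followed at the RNA level in whole testes. The set holds the protein-coding genes of GENCODE M21 whose symbol begins with Rpl or Rps followed by a number, with an optional letter for a copy, together with Rpsa, Rplp0, Rplp1 and Rplp2. Ribosomal S6 kinases and genes named as pseudogenes stay outside it. It comes to 84 of the 55487 gene identifiers in the count table, 32 of the small subunit and 52 of the large one. All 84 passed the filter on low counts, as did 19826 genes in all.

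The samples were testes of mice at postnatal day 19, 3 libraries labelled control and 3 labelled dsfb. The dsfb mice carry the Hormad1&2 SFB/SFB genotype, which alters HORMAD1 and HORMAD2, both proteins of the axis of meiotic chromosomes. The labels do not give what was done to the alleles, the strain or the exact genotype of the controls. The RNA is of the whole organ, so fewer cells of a type and less RNA per cell cannot be told apart in any value below. Depth was 15.3 to 27.7 M counts per library, less in dsfb than in control. Marker lists differed widely between the groups. The 10 markers of mid to late pachytene spermatocytes summed to 6908 to 9234 counts per 1000000 (CPM) in control and 134 to 142 in dsfb, and all 10 fell. The 15 Sertoli cell markers summed to 3360 to 4364 CPM in control and 7918 to 8297 in dsfb, and 14 of them rose. Markers rose in other lists too, in 5 of 7 for macrophages and 4 of 7 for Leydig cells. For peritubular myoid cells 3 of 6 rose. For undifferentiated spermatogonia 6 of 9 rose and Id4 fell (log2 -1.52). For differentiating spermatogonia and early meiosis 5 of 8 rose and Dmrtb1 fell (log2 -3.61). The sum of the former list was 163 to 199 CPM in control and 184 to 242 in dsfb. That of the latter was lower in dsfb, at 674 to 753 CPM against 871 to 1014 in control. The 10 spermatid markers summed to 155 to 741 CPM in control and 10.04 to 11.73 in dsfb, where Txndc8 was at 0 in all 3 libraries. Control replicate 3 stands apart: its counts differed from the other controls with a chi-square per degree of freedom of 61.4 and 65.0, against 6.26 between those 2 and at most 7.75 within dsfb. Its sum of spermatid markers is the high end of the control range. Without it the control range of that sum is 155 to 176 CPM. For the named genes, values called only with or only without this library are given both ways.

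A ribosome is built from ribosomal RNA and 1 copy of most of these proteins, and for most of them a single active gene serves every tissue. The exceptions matter in the testis. Several parent genes lie on the X chromosome, which is silenced in pachytene spermatocytes by meiotic sex chromosome inactivation. Rpl10l and Rpl39l are autosomal copies of the X-linked Rpl10 and Rpl39, are known for their expression in male germ cells, and are needed there for sperm production. Rpl3l, the copy of Rpl3, is known from heart and skeletal muscle.

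The coding sequences are shown first, because whether reads of a copy can be told from those of its parent depends on them. The copy and its parent are written 5′ to 3′, from GENCODE M21 transcripts (GRCm38), with each base at which the 2 differ in capitals. For Rpl39l and Rpl39 the whole coding sequence is given, bases 1 to 156.
Rpl39l: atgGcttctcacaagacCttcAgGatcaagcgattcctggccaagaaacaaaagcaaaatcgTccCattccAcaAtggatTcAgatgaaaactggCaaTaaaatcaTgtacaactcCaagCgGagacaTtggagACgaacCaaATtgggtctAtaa
Rpl39: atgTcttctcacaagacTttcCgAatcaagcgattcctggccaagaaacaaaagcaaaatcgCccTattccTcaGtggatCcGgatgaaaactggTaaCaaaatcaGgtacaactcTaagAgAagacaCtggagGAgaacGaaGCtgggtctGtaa
For Rpl10l and Rpl10 bases 64 to 213 of the coding sequence of 645 bases are given.
Rpl10l: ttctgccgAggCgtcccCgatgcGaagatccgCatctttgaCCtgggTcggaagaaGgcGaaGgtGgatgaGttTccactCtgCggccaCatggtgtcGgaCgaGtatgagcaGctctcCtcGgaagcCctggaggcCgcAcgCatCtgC
Rpl10: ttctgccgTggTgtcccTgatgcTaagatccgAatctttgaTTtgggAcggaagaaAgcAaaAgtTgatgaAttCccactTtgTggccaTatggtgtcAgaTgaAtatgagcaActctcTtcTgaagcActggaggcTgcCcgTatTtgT
The Rpl39l pair differed at 23 of 156 bases (85.3% identity), and its longest identical run was 38 bases. Over the full 645 bases the Rpl10l pair differed at 98 (84.8% identity) and shared no run longer than 23 bases. No stretch of 50 bases of the Rpl39l transcript occurred in any other annotated gene, and 7.60% of those of Rpl10l did. The parents are less distinct: 16.5% of the 50-base stretches of Rpl39 and 85.4% of those of Rpl10 occurred elsewhere, for Rpl10 in 14 genes annotated as pseudogenes among others. Reads could therefore be assigned to either copy more surely than to Rpl10. The labels give neither the read length nor how reads with several matches were handled.

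Rpl10l (ENSMUSG00000060499) lies on chromosome 12 at 66283379 to 66284401, minus strand, in mm10. Its levels were 257, 271 and 328 CPM in the control libraries and 70.4, 81.7 and 77.3 in dsfb. Every dsfb library was below every control. The mean fell from 285 ± 37.6 to 76.5 ± 5.70 CPM (SD, n = 3 each), 3.73-fold (log2 -1.90, SE 0.12, edgeR adjusted p = 8.46e-06). Its X-linked parent Rpl10 (X: 74270812 to 74273135, plus strand) went the other way. It stood at 158, 134 and 95.4 CPM in control and 258, 259 and 244 in dsfb, with no overlap and its lowest value in control replicate 3. It rose (log2 0.98, SE 0.17, edgeR adjusted p = 0.00162). Against the median of the autosomal Sertoli markers, which itself rose by 1.03, Rpl10 changed by -0.06, a value with no test.

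Rpl39l (ENSMUSG00000039209; chromosome 16, 10170226 to 10174911, plus strand) stood at 157, 171 and 232 CPM in control and 41.2, 51.8 and 47.1 in dsfb, again without overlap. It fell (log2 -2.00, SE 0.17, edgeR adjusted p = 3.66e-05), the largest fall among the 84 genes. Rpl39, the X-linked parent (X: 37082520 to 37085402, minus strand), measured 93.9, 103 and 51.2 CPM in control and 76.1, 85.8 and 79.9 in dsfb. All dsfb libraries lay between control replicate 3 and the other controls. It did not pass the test (log2 -0.04, SE 0.24, edgeR adjusted p = 0.889). Without control replicate 3 the log2 change was -0.32 (edgeR adjusted p = 0.00251).

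The pachytene and spermatid marker sums given above moved in the same direction as Rpl10l and Rpl39l. Their part in these falls was not tested.

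Rpl3l was near the lowest of all, at 1.81, 2.02 and 2.46 CPM in control and 1.63, 0.574 and 2.05 in dsfb. The groups overlapped and the test was not passed (log2 -0.56, SE 0.43, edgeR adjusted p = 0.282). Its parent Rpl3, an autosomal core protein of the large subunit, measured 348, 370 and 303 CPM in control and 500, 497 and 467 in dsfb, and rose (log2 0.52, SE 0.10, edgeR adjusted p = 0.00266). As for Rpl10, most 50-base stretches of Rpl3 (85.6%) occur in other genes, so its counts are uncertain.

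**Figure D1:**
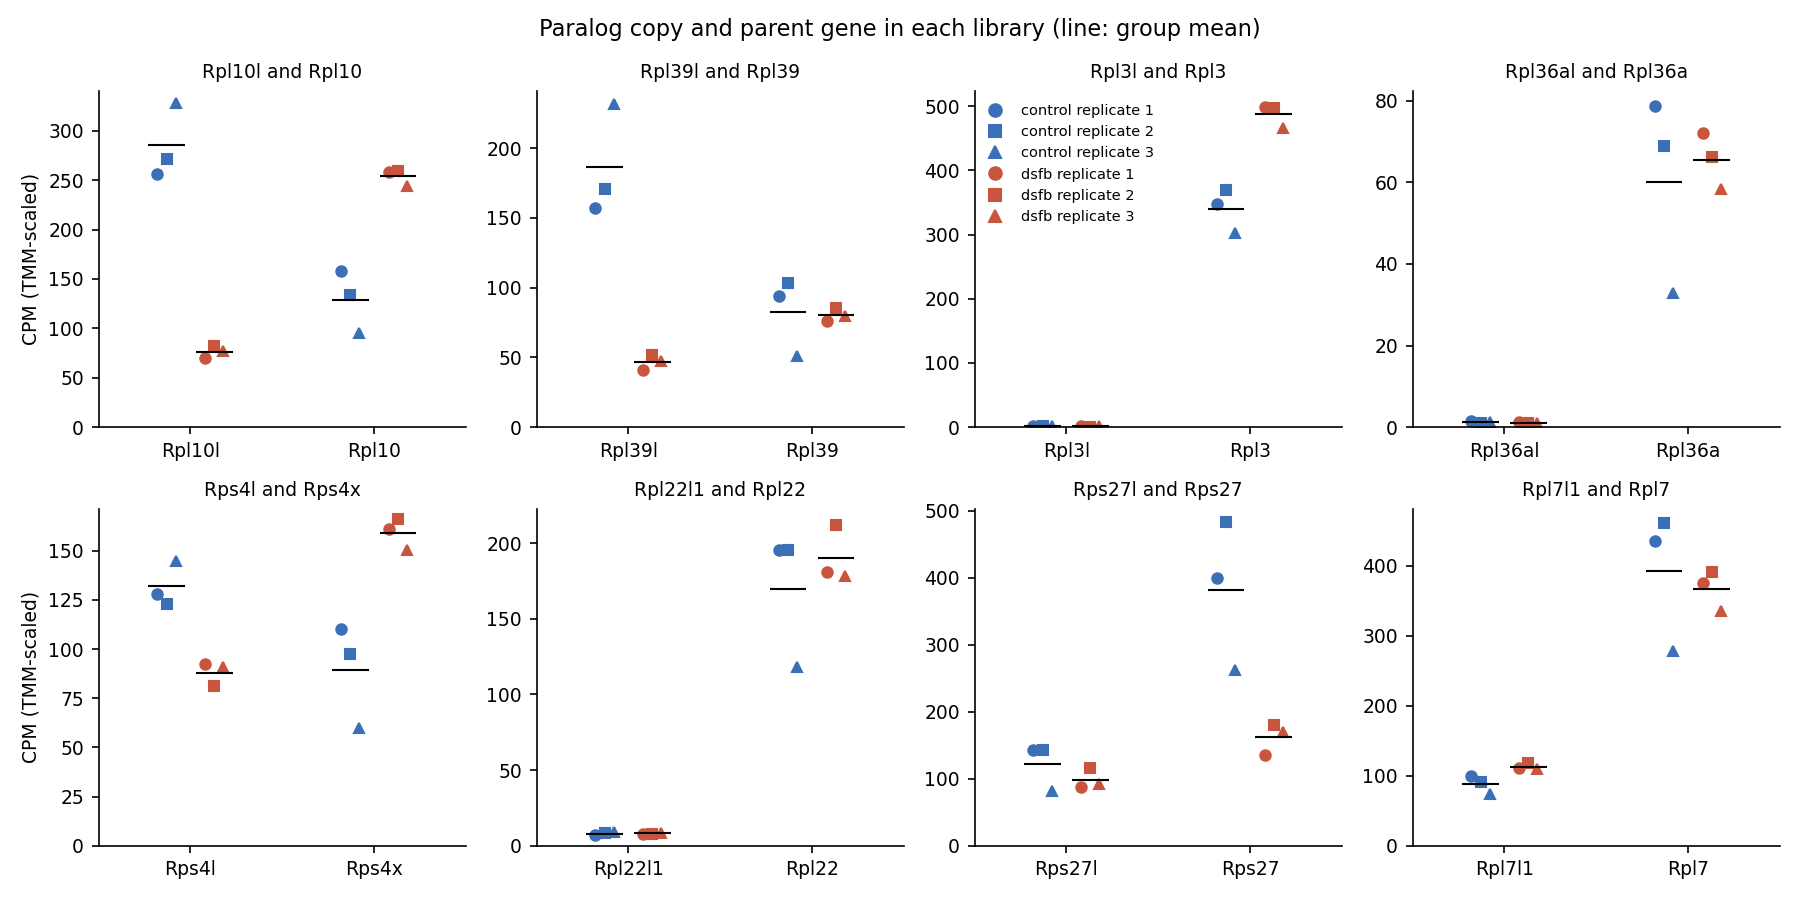
Level of each copy and its parent in CPM (TMM-scaled, linear axis) for each of the 6 libraries, with a line at each group's mean, for the 8 pairs. Rpl10l and Rpl39l are lower in every dsfb library than in any control, Rpl10 and Rpl3 are higher, and Rpl39 and Rpl3l overlap between groups.

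The ratio of copy to parent within a library does not depend on how libraries are scaled, so it was set beside the levels, with each count divided by the gene's exonic length. Rpl10l stood at 3.26, 4.07 and 6.89 times Rpl10 in control and at 0.547, 0.633 and 0.635 times in dsfb. By these counts the copy was the more abundant of the pair in every control library and the less abundant in every dsfb library. As 85.4% of the 50-base stretches of Rpl10 occur in other genes and the handling of such reads is not given, that order is uncertain. The mean log2 ratio differed by -2.90 (7.46-fold lower in dsfb; -3.13 to -2.59 when single libraries were left out). For Rpl39l over Rpl39 the ratios were 2.89, 2.85 and 7.81 in control and 0.935, 1.04 and 1.02 in dsfb. That is a log2 difference of -2.01 (4.02-fold lower; -2.25 to -1.52). Dividing by the length of 1 main transcript instead, a choice made after the values were seen, gave 1.36, 1.69 and 2.87 against 0.228, 0.264 and 0.264 for Rpl10l, so the order within that pair held. For Rpl39l it gave 1.27, 1.26 and 3.44 against 0.412, 0.459 and 0.449, so whether Rpl39l equals or lies below Rpl39 in dsfb depends on the length used.

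Of the 8 pairs compared, 6 had ratios that did not overlap between the groups, each with an exact two-sided permutation p of 0.1, the smallest that 3 against 3 libraries allow (0.133 after adjustment over the 8 pairs). No pair could therefore pass 0.05. For comparison, the levels of 74.7% of all tested genes did not overlap between the groups. No such share was counted for ratios of other genes. Rpl3l over Rpl3 differed by -1.25, and Rps4l over its X-linked parent Rps4x by -1.46. Rps4l is annotated as a transcribed processed pseudogene in M21 and so is not among the 84. It measured 128, 123 and 145 CPM in control and 92.4, 81.1 and 90.7 in dsfb (log2 -0.58, SE 0.10, edgeR adjusted p = 0.00127; -0.19 and not passed, adjusted p = 0.112, with library size alone as the scaling). Rps4x, of the small subunit, measured 110, 97.5 and 59.7 CPM in control and 161, 166 and 151 in dsfb, and rose (log2 0.84, SE 0.21, edgeR adjusted p = 0.00816). Its counts are uncertain too, as 72.2% of its 50-base stretches occur in other genes. In the other direction, Rps27l over Rps27 differed by 0.93 and Rpl7l1 over Rpl7 by 0.43. Rpl36al over Rpl36a (-0.48, exact permutation p = 0.4) and Rpl22l1 over Rpl22 (-0.17, exact permutation p = 0.9) overlapped between the groups. The last became 0.14 without control replicate 3.

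**Figure D2:**
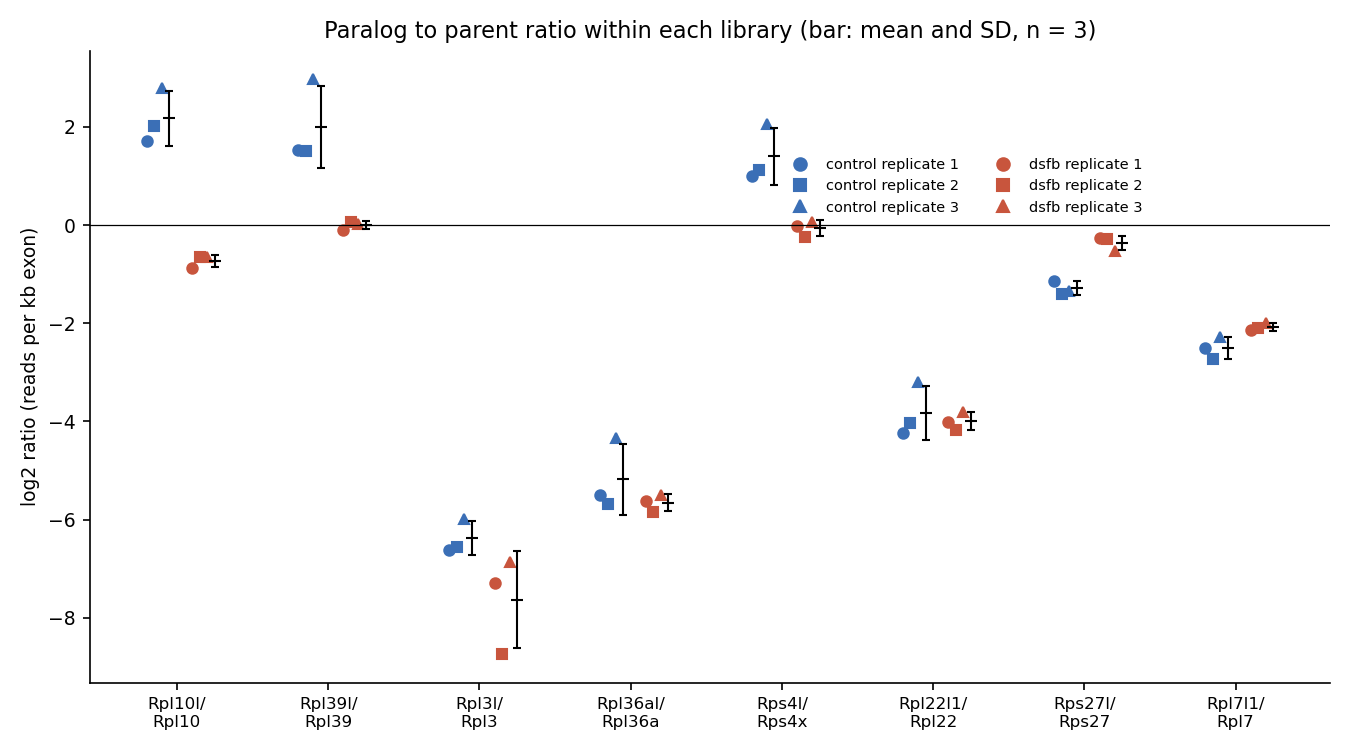
Log2 ratio of copy to parent, both per kb of exon, in each library for the 8 pairs, with mean and SD (n = 3). The control points of Rpl10l, Rpl39l and Rps4l lie above 0; the dsfb points of Rpl10l lie below 0 and those of Rpl39l and Rps4l close to it, while Rps27l and Rpl7l1 are higher in dsfb.

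Not every copy fell. Rpl22l1, whose level is known to be held down by its parent Rpl22, measured 7.03, 8.18 and 8.76 CPM in control and 7.67, 7.97 and 8.69 in dsfb (edgeR adjusted p = 0.922). Rpl36al, an autosomal copy of the X-linked Rpl36a, was between 0.918 and 1.40 CPM in all libraries (edgeR adjusted p = 0.416). Of its exonic bases 24.5% lie in another gene on the same strand, which limits what its count means. Rps27l, a known p53 target, measured 143, 142 and 81.4 CPM in control and 87.7, 116 and 91.7 in dsfb. It did not pass (log2 -0.31, edgeR adjusted p = 0.241), while without control replicate 3 it fell by 0.57 (edgeR adjusted p = 2.21e-05). Its parent Rps27 fell, from 400, 482 and 262 CPM to 136, 180 and 169 (log2 -1.24, SE 0.22, edgeR adjusted p = 0.00176), but 98.6% of its 50-base stretches occur in other genes, so its counts are uncertain. Rpl7l1 rose slightly, from 99.5, 90.4 and 74.4 CPM to 111, 119 and 110 (log2 0.36, SE 0.12, edgeR adjusted p = 0.0267), a call lost under RLE scaling (adjusted p = 0.0546), in DESeq2 (adjusted p = 0.0562) and without control replicate 2 (adjusted p = 0.064) or any 1 dsfb library (adjusted p = 0.0558 to 0.0926). The parents Rpl7 and Rpl22 did not pass. Rpl7 measured 435, 462 and 279 CPM in control and 376, 390 and 335 in dsfb (log2 -0.09, edgeR adjusted p = 0.668; -0.32 and adjusted p = 0.00161 without control replicate 3). Rpl22 measured 195, 195 and 118 CPM in control and 181, 212 and 178 in dsfb (edgeR adjusted p = 0.468). Among the 7 copies in the set 1 rose (14.3%), 2 fell (28.6%) and 4 did not pass. Of all tested genes 30.7% rose and 36.2% fell.

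The 4 X-linked genes of the set, Rpl10, Rpl39, Rpl36a and Rps4x, had their lowest value in control replicate 3 in every case. Rpl36a, with 85.5% of its 50-base stretches in other genes, measured 78.6, 68.9 and 32.8 CPM in control and 72.0, 66.1 and 58.3 in dsfb. It did not pass (edgeR adjusted p = 0.723). So 2 of the 4 rose and none fell, with a median log2 change of 0.48. Without control replicate 3 Rpl10 (0.77) and Rps4x (0.59) were still called higher, Rpl39 fell, Rpl36a stood at -0.20 (edgeR adjusted p = 0.0717), and the median was 0.19. Over all 766 X-linked genes tested 567 rose (74.0%), 65 fell and the median was 1.03, or 0.89 without that library, so the 4 stood below that median either way.

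Over the whole set, 19 of 84 genes rose, 24 fell and 41 did not pass the edgeR test at an adjusted p of 0.05. The background in this comparison was 30.7% of all 19826 tested genes rising and 36.2% falling, 66.9% in all, against 22.6% and 28.6% of the 84. Whether the shares of the set differ from the background was not tested. Its median log2 change was -0.05, beside 0.02 for all genes. Without control replicate 3, 24 rose and 35 fell (28.6% and 41.7%, against 33.2% and 38.4% of all genes). The set's changes were also narrower than those of all genes, with an SD of 0.55 log2 units against 2.54. That is not particular to the set: the SD was 0.60 for mitochondrial ribosomal proteins and 0.73 for ribosome biogenesis factors. Counted by libraries, 22 genes of the set had all dsfb values above all control values and 26 all below, while 36 overlapped. Among all genes 36.2% were wholly above and 38.5% wholly below, 74.7% together. The small subunit had 10 genes that rose and 9 that fell of 32 (median 0.00), the large subunit 9 and 15 of 52 (median -0.06). Without control replicate 3 these were 11 and 15, and 13 and 20.

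The sign of the median rests on the scaling. Upper-quartile scaling shifted the median of all genes by 0.28 and gave 35 rises and 11 falls in the set; it put 57.2% of all calls on the higher side, against 45.9% under TMM. Library size alone shifted it by 0.40 and gave 41 and 8, with 60.9% of all calls higher. Testing every gene with at least 1 read shifted it by -0.30 and gave 11 and 24, with 35.5% higher. Relative to the autosomal Sertoli markers every one of the 84 was lower, with a median of -1.08. This is not particular to the set, as the median of all tested genes (0.02) also lay below the Sertoli median (1.03). The share of all genes below it was not counted. The falls of the 2 copies and the rise of Rpl10 were called under TMM, RLE and library-size scaling alike: Rpl10l changed by -1.99 under RLE and -1.50 with library size alone, Rpl39l by -2.09 and -1.60, and Rpl10 by 0.89 and 1.36.

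**Figure D3:**
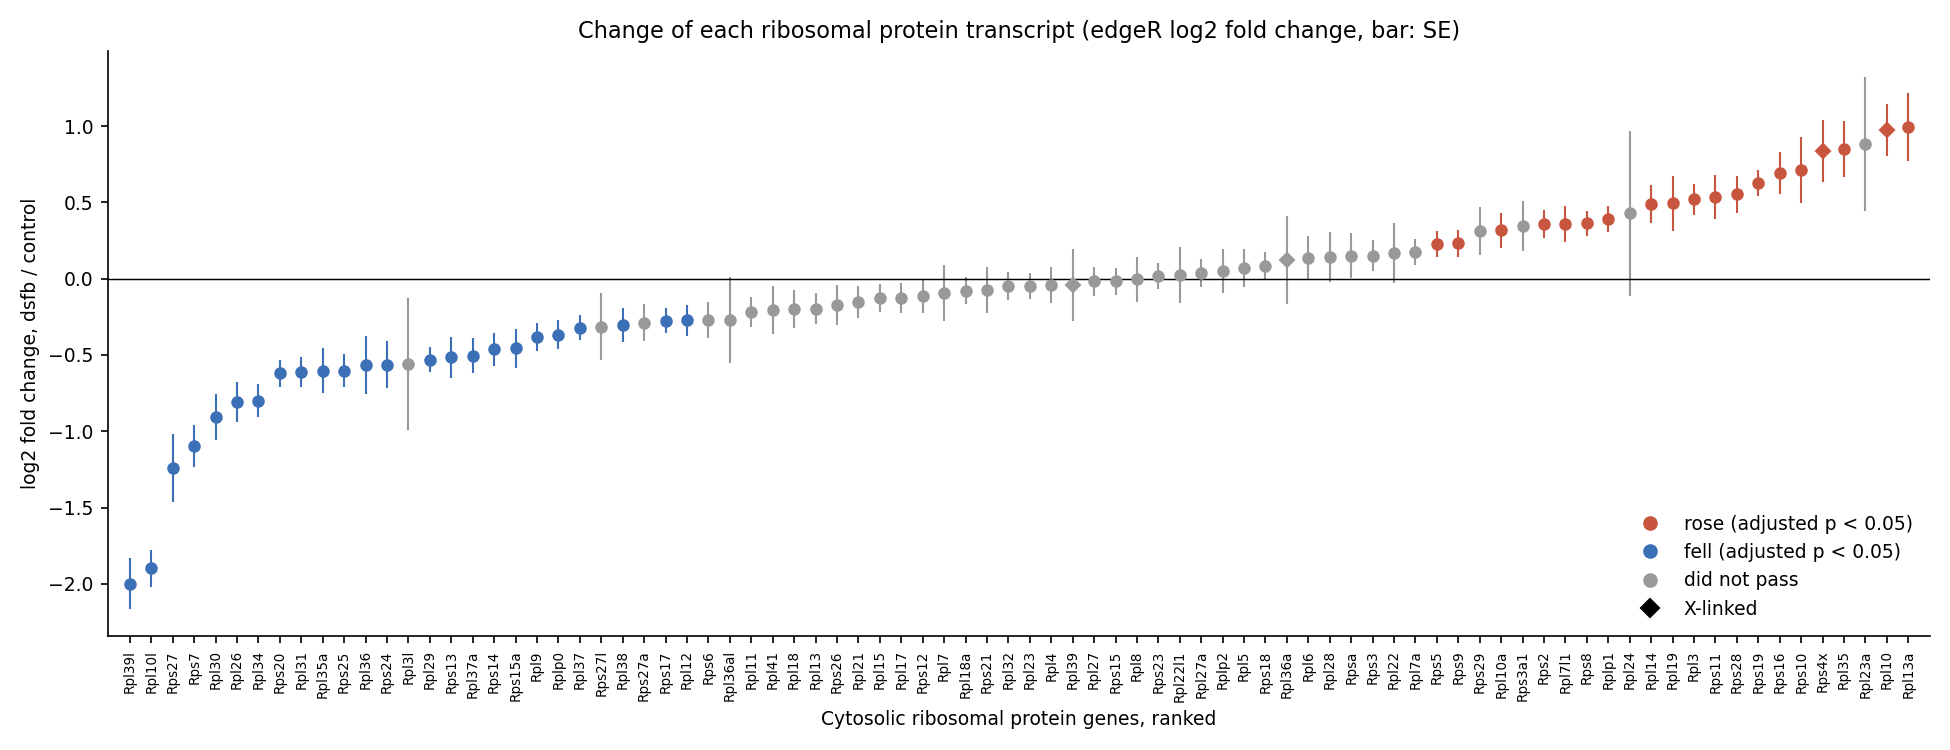
Log2 change, dsfb over control, with its standard error for all 84 genes, in rank order and marked by whether the edgeR test was passed. Diamonds are X-linked genes. Rpl39l and Rpl10l stand below the rest at -2.00 and -1.90, most others lie within 1 log2 unit of 0, and Rpl13a at 0.99 and Rpl10 at 0.98 end the series.

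Among the other genes, the 5 largest rises were Rpl13a, Rpl35, Rps10, Rps16 and Rps19. Rps19, of the small subunit and known from Diamond-Blackfan anaemia, measured 145, 148 and 145 CPM in control and 238, 234 and 204 in dsfb (log2 0.63, edgeR adjusted p = 0.000512). Rps16 went from 154, 139 and 199 CPM to 266, 278 and 251 (log2 0.69, edgeR adjusted p = 0.003). Neither overlapped between the groups. The other 3 had few counts and share their place with another gene. Rpl13a, the large-subunit protein of the interferon-gamma translation inhibitor complex, measured 3.91, 4.50 and 4.87 CPM in control and 8.43, 10.7 and 7.29 in dsfb (log2 0.99, SE 0.22, edgeR adjusted p = 0.00521), with 29.4% of its exonic bases in Gm45713 on the same strand. Rpl35 went from 13.2, 10.6 and 13.3 CPM to 22.0, 26.3 and 18.6 (log2 0.85, edgeR adjusted p = 0.00434), with 66.2% of its exonic bases facing Wdr38 on the opposite strand. Other genes also hold 95.1% of its 50-base stretches. Rps10 went from 3.49, 2.85 and 2.92 CPM to 5.03, 4.48 and 5.67 (log2 0.71, edgeR adjusted p = 0.0195), with 20.6% in RPS10-NUDT3. Its call was lost with every gene of at least 1 read tested (adjusted p = 0.0912) and without control replicate 2, dsfb replicate 1 or dsfb replicate 3 (adjusted p = 0.073, 0.0552 and 0.063).

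The 5 largest falls outside the pairs were Rps7, Rpl30, Rpl26, Rpl34 and Rps20, none with overlapping groups. Rps7, which like Rpl26 is known to act in p53 control, measured 759, 788 and 584 CPM in control and 337, 357 and 303 in dsfb (log2 -1.10, SE 0.14, edgeR adjusted p = 0.000287). Rpl26 went from 432, 472 and 341 CPM to 239, 251 and 222 (log2 -0.81, edgeR adjusted p = 0.00114). Rpl30 fell from 145, 169 and 125 CPM to 65.4, 89.4 and 79.2 (log2 -0.90, edgeR adjusted p = 0.00124) and Rpl34 from 305, 330 and 259 to 169, 182 and 163 (log2 -0.80, edgeR adjusted p = 0.000467). Rps20 changed least of these 5, from 401, 388 and 407 CPM to 250, 282 and 245 (log2 -0.62, edgeR adjusted p = 0.000591). All 5 share sequence with other annotated genes, from 218 stretches of 50 bases in Rpl34 to 663 in Rpl30.

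The P stalk of the large subunit, which recruits elongation factors, is made of Rplp0, Rplp1 and Rplp2. Rplp1 rose from 356, 352 and 367 CPM to 459, 500 and 446 (log2 0.39, edgeR adjusted p = 0.00477). Rplp0 stood at 1256, 1293 and 1270 CPM in control and 1007, 1033 and 920 in dsfb, lower under TMM (log2 -0.37, SE 0.10, edgeR adjusted p = 0.0102) but at 0.03 with library size alone as the scaling. Its call was also lost without dsfb replicate 1 (adjusted p = 0.0511) or replicate 3 (adjusted p = 0.0606). Rplp2 measured 128, 118 and 171 CPM in control and 142, 136 and 154 in dsfb and did not pass (edgeR adjusted p = 0.769; log2 0.20 and adjusted p = 0.0378 without control replicate 3). Of the proteins around the decoding site and the mRNA path, Rps2 rose from 325, 313 and 297 CPM to 434, 387 and 376 (log2 0.36, edgeR adjusted p = 0.01; not passed without dsfb replicate 1, adjusted p = 0.0505). Rps3 (log2 0.15, edgeR adjusted p = 0.23), Rps15 (-0.02, adjusted p = 0.87) and Rpsa (0.15, adjusted p = 0.393) did not pass. Under upper-quartile scaling Rps2 (0.63), Rps3 (0.43), Rps15 (0.26) and Rpsa (0.43) were all called higher, as they were with library size alone (0.75, 0.54, 0.38 and 0.54). Rpl5 and Rpl11, which together bind Mdm2 when ribosome assembly fails, measured 326, 337 and 255 against 324, 346 and 294 CPM (edgeR adjusted p = 0.645), and 247, 245 and 289 against 227, 235 and 210 CPM (edgeR adjusted p = 0.0846). Rps27a, made as a fusion with ubiquitin, had a log2 change of -0.29 (edgeR adjusted p = 0.0644; -0.42 and adjusted p = 7.78e-05 without control replicate 3).

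Per kb of exon and over both groups, the highest mean levels were those of Rplp1 (717 in control and 939 in dsfb), Rplp0 (767 and 595) and Rpl36 (447 and 302). The order depends on the group and the length used: in dsfb Rps3a1 (386) and Rpl4 (343) lay above Rpl36, and per kb of 1 main transcript Rps27 led in control (1106) and Rpl36 was not among the first 5 in either group. Rpl36 measured 142, 141 and 230 CPM in control and 111, 119 and 117 in dsfb (log2 -0.57, edgeR adjusted p = 0.03; -0.32 and adjusted p = 0.00102 without control replicate 3). That call was lost under upper-quartile scaling (adjusted p = 0.194) and without any 1 of the dsfb libraries. The lowest were Rpl24, Rpl36al and Rpl3l. Rpl24, a core protein of the large subunit, was between 0.233 and 0.864 CPM in all libraries, with 47.0% of its exonic bases in Gm28037 on the same strand.

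The set took 1.98, 1.94 and 1.70% of all counts in the control libraries and 2.23, 2.33 and 2.14% in dsfb, means of 1.87 ± 0.15% and 2.23 ± 0.10% (SD, n = 3 each; exact two-sided permutation p = 0.1, the smallest possible). The 95% Wilson interval of a single share is narrow, for instance 1.975 to 1.986% in control replicate 1, and covers counting error only. As a sum of TMM-scaled values the order turned, with 2.15% in control and 1.95% in dsfb (exact permutation p = 0.2), so which group holds more ribosomal protein RNA depends on the scaling. Transcripts of the mitochondrial genome also took more of the counts in dsfb, 3.83 ± 0.57% against 2.20 ± 0.78%. Within the counts of the set 2 shares are free of that scaling. Rpl10l and Rpl39l together made up 1.87, 1.99 and 2.77% of them in control and 0.569, 0.652 and 0.676% in dsfb. The small subunit took 40.1% in control and 40.2% in dsfb (exact permutation p = 1).

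**Figure D4:**
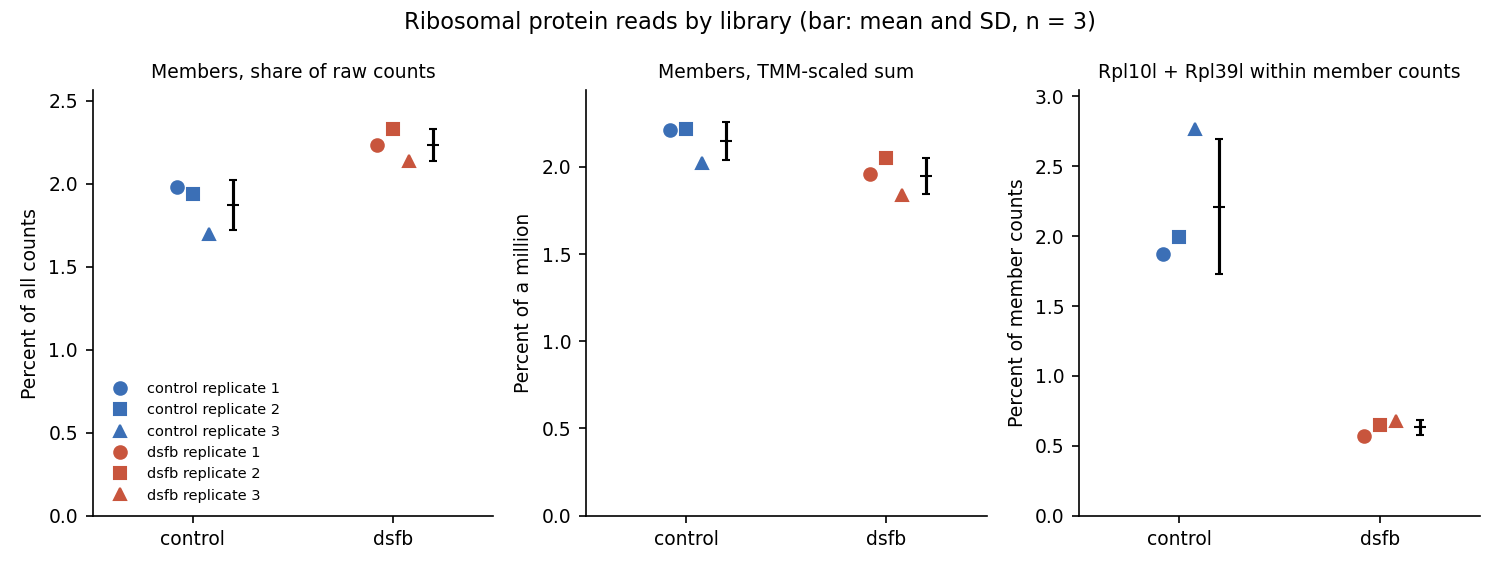
Percent for each library, with mean and SD (n = 3), of all counts on the 84 genes (left), of their TMM-scaled sum (middle) and of the 84 genes' counts on Rpl10l and Rpl39l (right). The left panel is 1.70 to 1.98% in control and 2.14 to 2.33% in dsfb, the middle one has the groups in the opposite order, and the right one is 1.87 to 2.77% in control and 0.569 to 0.676% in dsfb.

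The share of genes that fell varied with coding length. Among the 73 autosomal genes that are no copy, in length classes chosen after the values were seen, 12 of the 22 with a coding sequence of up to 400 bases fell and 3 rose (median -0.31). Of the 31 with 401 to 600 bases 9 fell and 6 rose (median -0.05). Of the 20 above 600 bases 1 fell, Rplp0, and 7 rose, among them Rpl3 and Rps2 (median 0.15). Without control replicate 3 the falls and rises were 15 and 5, 12 and 8, and 4 and 8 in these 3 classes. Of all tested genes 36.2% fell and 30.7% rose, or 38.4% and 33.2% without control replicate 3. Whether the shares of the classes differ from these was not tested. The 73 genes are not independent of each other. Across them Spearman's rho of the log2 change with coding length was 0.33 and with GC content of the coding sequence 0.34. With the share of 50-base stretches found in other genes it was 0.05. The part of length or base composition in the changes was not tested.

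**Figure D5:**
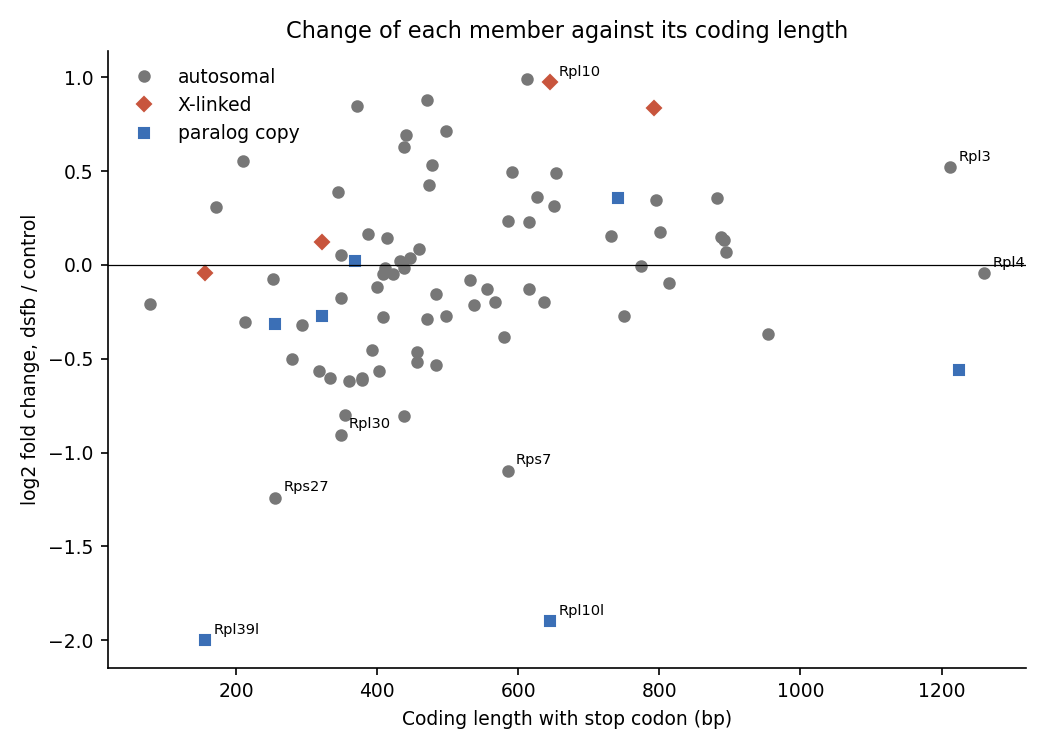
Log2 change, dsfb over control, against coding length in bases for the 84 genes, 1 point a gene, with X-linked genes and copies marked. Most points left of 400 bases lie below 0, and more of those right of 600 bases lie above 0 than below.

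The RefSeq promoter table (GRCm38.p6, 250 bases before to 50 after the annotated start) held 64 of the 84 genes. The letters CCGGAAG, a match to the motif of ETS factors, occurred on either strand in 25 of them (39.1%), against 16.1% of the 12160 tested protein-coding genes in the table and 12.3% of all 16522. Rpl39l had it at 2 places in the 250 bases before its start, chr16:10169978-10170227, plus strand, shown with the matches in capitals.
Rpl39l upstream: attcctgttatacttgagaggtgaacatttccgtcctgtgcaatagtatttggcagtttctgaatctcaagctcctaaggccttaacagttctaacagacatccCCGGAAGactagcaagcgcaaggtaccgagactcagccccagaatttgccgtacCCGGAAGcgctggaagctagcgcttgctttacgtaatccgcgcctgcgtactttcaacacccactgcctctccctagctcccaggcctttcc
In the same span of Rpl10l none of the factor motifs searched was found, though a tract of C and T as defined at the end of the list did lie a few bases before its start. AAGATGGC, a match to YY1, occurred in 7.81% of the 64 (4.09% of the tested genes) and TGACGTCA, a match to CREB factors, in 7.81% (2.98%). Either TAACTG or CAACTG, or the related TAACGG or CAACGG, all matches to MYB factors, occurred in 17.2% (25.3%). A C followed by 4 further C or T within 10 bases of the start, as in the 5′ terminal oligopyrimidine tract through which mTOR controls translation of these mRNAs, was found in 56.2% (32.0%). These are matches of letters in a window and no evidence of binding.

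Other genes of ribosome production were counted in the same fit, in which 30.7% of all tested genes rose and 36.2% fell. Of 45 ribosome biogenesis factors 17 rose (37.8%) and 8 fell (17.8%), with a median log2 change of 0.14. Without control replicate 3, 19 rose (42.2%) and 14 fell (31.1%), against 33.2% and 38.4% of all genes. Among these factors stood Las1l, which cuts ribosomal RNA spacers, at 1.57 with all libraries. Wdr12 and Sbds, both of large-subunit maturation, stood at -1.84. Las1l is X-linked, as are Utp14a (1.23), Gnl3l (1.08) and Dkc1 (0.85), which also rose. Over all tested X-linked genes 74.0% rose, with a median of 1.03. Of 19 other genes with terminal oligopyrimidine tracts or bound to ribosomes 1 rose (5.26%), Hnrnpa1 (1.09), and 9 fell (47.4%), among them Pabpc1 (-1.97) and Btf3 (-1.06), with a median of -0.34; without control replicate 3, 2 rose and 12 fell. Of 10 chaperones and importers of ribosomal proteins 4 rose (40.0%), including the X-linked Tsr2 (1.38), and 3 fell (30.0%), including Ipo5 (-1.56) and Aamp (-1.31). Leaving out control replicate 3 gave 5 rises and 4 falls among them. The proteins of the mitochondrial ribosome, a separate set of nuclear genes, had 9 rises (11.8%) and 35 falls (46.1%) of 76 tested (median -0.26), led by Mrpl39 (-1.99), Mrpl24 (-1.41) and Mrpl1 (-1.37). Their rises and falls were 11 (14.5%) and 41 (53.9%) without control replicate 3. In the 84 cytosolic genes the median was -0.05. The cytosolic genes were also split, after the values were seen, by whether an annotated exon overlaps a small nucleolar RNA on the same strand. Small nucleolar RNAs that lie only in introns were not counted, so this is not a full list of host genes. Of the 24 with such an overlap 6 rose (25.0%) and 4 fell (16.7%), with a median of 0.06. Of the 60 without it 13 rose (21.7%) and 20 fell (33.3%), with a median of -0.13. When control replicate 3 was left out, 9 of the 24 rose and 6 fell, and 15 of the 60 rose and 29 fell. None of these shares was tested against that of all genes.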

How the data were processed

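Polyadenylated RNA of testes was sequenced after TRIzol extraction and a NEBNext Ultra library, per the labels. The authors deposited raw counts per gene for 6 libraries, 3 per group, all used. The submitters' processing notes name STAR 2.6.0 and mm10. No label names the counter, its annotation or whether it used strand, so the 19 genes of the set with exons facing another gene are uncertain. Symbols, positions and sequences came from GENCODE M21, in whose chromosome annotation 346 of 55487 identifiers were not found (0.0458% of counts). Nothing says that the libraries came from litters or batches; they are from different mice, per the series' design.

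The whole table was fitted in edgeR 4.0.16 (R 4.3.3; filterByExpr, TMM factors 0.844 to 0.897 in control and 1.14 to 1.16 in dsfb, quasi-likelihood test), with Benjamini-Hochberg adjustment over 19826 genes and a threshold of 0.05. CPM values are TMM-scaled. Ratios had 0.5 read added. Ratios and shares were compared by exact two-sided permutation, which cannot go below 0.1. DESeq2 1.42.0, limma-voom 3.58.1, other scalings and filters and left-out libraries were alternatives.

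In simulated data the fit recovered 37 of 66 4-fold changes, 26 of 67 2-fold ones and 3 of 67 1.5-fold ones, and called 7 of 19626 unchanged genes. At a mean of at least 50 CPM these were 11 of 11, 18 of 19 and 3 of 19. The pass mark of this check was first set on recovery over all genes, was missed, and was then replaced by marks on recovery at 50 CPM, on unbiased folds and on false calls. Changes of 1.5-fold would thus often be missed at any level, and larger ones in low genes.

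The set and the gene lists were chosen with earlier results of these data known. Named are all copies with their parents, the 5 largest rises and falls among the rest, the 3 highest and 3 lowest per kb, the P stalk, Rps2, Rps3, Rps15, Rpsa, Rpl5, Rpl11 and Rps27a, and the 3 genes with the smallest p of each other list. Names beyond that rule were chosen after values were seen. A planned comparison of protein sequences was replaced by coding sequences.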

Additional observations from a re-analysis of the deposited data

How the results depend on the processing

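Scaling decides the balance of rises and falls. Beside 19 and 24 under TMM, upper-quartile scaling gave 35 and 11 (median 0.23) and library size alone 41 and 8 (median 0.35). These 2 scalings also moved the median of all genes, by 0.28 and 0.40. Of all calls 57.2% and 60.9% were then higher, against 45.9% under TMM. Testing every gene with at least 1 read gave 11 rises and 24 falls in the set (median -0.12), with 35.5% of all calls higher. The median of the set was -0.14 with RLE scaling and with DESeq2. It was -1.08 against the autosomal Sertoli markers, where Rpl10 changed to -0.055. Rps15 rose by 0.26 (upper quartile) and 0.38 (library size alone), and Rplp0 stood at 0.027 with library size alone. Leaving out single libraries gave 13 to 24 rises, 16 to 35 falls and medians of -0.114 to -0.0041 in the set. Over all genes 4940 to 6596 rose and 6889 to 7621 fell in these fits, of 19850 to 21291 tested. The set's median of -0.11 and both its highest counts (24 and 35) came without control replicate 3. The log2 difference of Rpl22l1 over Rpl22 ranged from -0.39 to 0.14 and was above 0 only without that library. Of 38 named genes 18 kept their sign and side of the threshold in every alternative that was fitted. In at least 1 of them 14 changed sign, Rps15 being the only one called after the change. Against the Sertoli markers all 84 are below 0, and so is the median of all tested genes. With the replicate number as a block, 21 of the set rose and 26 fell, beside 6228 and 7203 of all 19826 tested genes. Same-numbered libraries correlated at 0.07, 0.06 and 0.12 in their deviations, each best with its own number, a hint from the data that does not establish a pairing. Among red blood cell markers Hbb-bs stood at 121, 114 and 6.72 CPM in control and 142, 146 and 17.4 in dsfb. Hba-a1 stood at 75.2, 78.4 and 4.26 CPM in control and 131, 109 and 13.3 in dsfb. Replicate 3 was thus low in both groups for these 2 genes. None of the 5 markers of that list passed the edgeR test between groups. The source of this likeness was not tested. Low counts limit Rpl3l, Rpl24 and Rpl36al.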
